A study of Mus musculus with 18 samples.

Results

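High-fat diet was compared with control diet in mouse preadipocytes, the precursor cells of fat cells, by sequencing of their messenger RNA. The comparison takes 6 of the 18 libraries of the series, namely 3 of cells from mice on a high-fat diet (HFD) and 3 of cells from mice on a control diet (CD), chosen by their diet and treatment labels. All 6 libraries are labelled wild type and mock treated, and the cells came from epididymal white adipose tissue, the fat pad next to the epididymis. The other libraries are of CD cells given TGF-b1, of CD cells given TGF-b1 with SB431542, which blocks the kinase of that cytokine's type I receptor, and of differentiated cells sorted on surface integrin alpha 5. The series concerns fibrosis and adipogenesis under TGF-b and Smad3 inhibition. The sources used here give no age, length of diet, number of animals or time in culture. Nor do the labels say whether the replicates came from separate animals. The p-values thus speak of the spread between replicate libraries alone, and that spread may be technical. It was taken from the 12 libraries of undifferentiated cells, fitted together in 4 groups. If the cells of each diet were prepared together, diet and preparation cannot be told apart.

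Preadipocytes are fibroblast-like cells of the stromal vascular fraction of fat, the mixture that remains once fat cells are removed and that also holds macrophages, endothelial cells, mural cells and, in visceral fat, mesothelial cells from the pad's surface. They can become fat cells under PPARg and C/EBPa, 2 transcription factors that act together, or they can take on a matrix-producing, contractile state known as the myofibroblast, which TGF-b drives through Smad3. In obesity visceral fat gains macrophages and collagen. Libraries from such cultures report the sum over the cells present, so fewer cells of a type and less RNA per cell cannot be told apart here.

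The CD libraries held 11154450 to 13846891 counts each and the HFD libraries 12698200 to 14729434. Levels are given in CPM, the counts of a gene relative to the scaled library total, by library or as the mean ± SD of 3 libraries. Differences are given as log2 fold changes of HFD minus CD ± SE. This SE is the absolute log2 fold change divided by the square root of the F statistic from edgeR's quasi-likelihood test. The chi-square per degree of freedom between pairs of replicates was 1.15 to 1.21, close to the value of sampling noise alone. With so small a spread, 7604 of 14078 genes tested were called at an adjusted p under 0.05, which is 54% of them. Of these, 3835 genes (27.2%) were higher and 3769 (26.8%) were lower in HFD, so that 50.4% of the calls were higher ones, against 33.6% when libraries were scaled by total counts. The median over all genes tested was -0.0077 log2. A difference of at least 1 log2 unit was called upwards in 613 genes (4.35%) and downwards in 1032 (7.33%), and the CPM of the 3 HFD libraries and the 3 CD libraries did not overlap in 8163 (58%). Counts of list members below are read against these shares.

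Among the genes that were higher in HFD were those of the contractile apparatus, and among the lower ones those of cholesterol synthesis. The upstream sequences of members from both groups are shown because each holds the site of a factor known to act on its group. The CArG box is the site of serum response factor, which drives actin and myosin genes, and it is in capitals in the first 4 stretches. The last stretch is from Hmgcs1, an early enzyme of cholesterol synthesis, with the sterol regulatory element TCACNCCAC, the site of the SREBP factors, in capitals. Each is taken from RefSeq (GRCm38.p6), written 5′ to 3′ on the strand of the gene.
Acta1 (chr8:123894814-123894873, minus strand, box starting 73 bases upstream of the gene): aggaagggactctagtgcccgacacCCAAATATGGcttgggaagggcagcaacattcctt
Cnn2 (chr10:79988519-79988578, plus strand, 56 bases upstream): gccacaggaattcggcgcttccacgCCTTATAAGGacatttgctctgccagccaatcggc
Myl9 (chr2:156775278-156775337, plus strand, 161 bases upstream): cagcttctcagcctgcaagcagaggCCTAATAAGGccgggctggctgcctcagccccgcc
Vcl (chr14:20929148-20929205, plus strand, 227 bases upstream): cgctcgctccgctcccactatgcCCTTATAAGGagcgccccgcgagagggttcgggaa
Hmgcs1 (chr13:119690189-119690247, plus strand, 137 bases upstream): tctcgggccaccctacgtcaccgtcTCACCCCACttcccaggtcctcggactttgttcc

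In the 250 bases upstream of the start, searched on both strands, the CArG box was found in 4 of the 21 contractile genes with a matched promoter (19%) and in 1.13% of the 10817 promoters of tested genes. The sterol element was found in 1 of 17 cholesterol genes (5.9%) and in 0.96% of all. The PU.1 site GAGGAAGT, that of a factor central to macrophages, was found in 1 of 18 macrophage markers (5.6%) and in 2.44% of all. No promoter held overlapping motifs. These are matches of letters and were not tested for binding. Of the genes shown, Myl9 differed most between diets in absolute level, at 259.5, 255 and 260.3 CPM in the CD libraries and 589, 581 and 576 CPM in the HFD libraries, while Vcl, which encodes vinculin of the cell's adhesion sites, rose by 0.06 ± 0.0138 log2 and was at -0.023, with no call, under scaling by total counts.

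The labelled cell type was checked first against its defining markers. Pdgfra, a growth factor receptor of adipocyte progenitors, was at 486, 484 and 487 CPM in the CD libraries and 396, 391 and 395 CPM in the HFD libraries, and its partner receptor Pdgfrb was at 857, 854 and 838 CPM in the CD libraries and 1071, 1067 and 1079 CPM in the HFD libraries. Both receptors were therefore present in all 6 libraries, with Pdgfra lower in HFD (-0.30 ± 0.0169 log2) and Pdgfrb higher (0.34 ± 0.0122). Of the other defining markers of progenitors, Cd34, Dpp4 and Ly6a were lower in HFD and Col1a1 was higher, with values given below. Of the lymphocyte markers, Cd4 held 0 or 1 count per library, Cd3e and Cd79a were not analysed here, and 1 member was tested, Il7r, the interleukin-7 receptor, which also occurs on other immune cells and rose from 6.54 ± 0.938 to 34.6 ± 0.751 CPM. Epcam, which defines epithelium, held 21 counts in the CD libraries together and 6 in the HFD libraries together. No erythroid marker passed the filter on low counts. Of the Y-linked Ddx3y there were 101 ± 3.55 CPM in CD and 95.5 ± 0.417 CPM in HFD, while Xist had 0 to 4 counts per library.

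Macrophage markers were higher in HFD and had the highest median of the lists with more than 1 member tested. Of 24 tested, 22 rose, 1 fell and 1 was not called, with a median of 2.26 log2, and their summed level was 814 to 832 CPM in the CD libraries and 3648 to 3682 CPM in the HFD libraries, a ratio of 4.47. Csf1r, the receptor for the macrophage growth factor CSF1, was at 47.4, 43.8 and 45.6 CPM in the CD libraries and 238, 234 and 244 CPM in the HFD libraries, a log2 fold change of 2.39 ± 0.0361 (adjusted p = 1.82e-54). C1qa, a chain of the complement protein C1q (mm10 chromosome 4, 136895916 to 136898844), was at 19.2, 19.5 and 20.7 CPM in the CD libraries and 188, 194 and 196 CPM in the HFD libraries, a log2 fold change of 3.28 ± 0.0431. Lyz2, the lysozyme of myeloid cells, was at 306, 305 and 309.5 CPM in the CD libraries and 1159.6, 1162 and 1167 CPM in the HFD libraries. In these genes each HFD library exceeded each CD library by more than the whole spread within either diet. The other C1q chains, C1qb and C1qc, rose by 3.06 and 3.05 log2. Adgre1, a surface receptor that defines mouse macrophages, went from 16.03 ± 1.03 to 116 ± 1.12 CPM, and Ptprc, the CD45 phosphatase of all white blood cells, from 9.51 ± 0.832 to 66.6 ± 5.2 CPM. The scavenger and mannose receptor Mrc1 rose by 1.69 and the myeloid integrins Itgam and Itgax by 2.54 and 2.20. Cd163, a scavenger receptor of resident macrophages, had 3, 6 and 5 counts in the CD libraries and 6, 10 and 6 in the HFD libraries and was not called. Mertk, a receptor for dying cells, was the exception and fell by 0.46 log2, from 23.8 ± 1.84 to 17.2 ± 1.48 CPM. Csf1, the ligand that macrophages need to live and that stromal cells make, rose from 1993 ± 11 to 2828 ± 17 CPM.

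Mesothelial markers went the other way. Of 16 tested, 15 fell and 1 rose, with a median of -1.81 log2, and their summed level was 3826 to 3884 CPM in CD and 1214 to 1227 CPM in HFD, 3.16 times lower. Upk3b, a uroplakin found on mesothelium, was at 659, 647 and 639 CPM in the CD libraries and 152, 157 and 162 CPM in the HFD libraries, a log2 fold change of -2.04 ± 0.0194 (adjusted p = 1.69e-65). Msln, mesothelin, was at 124, 118 and 119.5 CPM in the CD libraries and 32.3, 32.6 and 31.1 CPM in the HFD libraries. The CD libraries were the higher ones throughout, with no overlap for either gene. Keratins of simple epithelia fell in step, with log2 fold changes of -2.57 for Krt19, -1.78 for Krt8 and -1.68 for Krt18, as did Lrrn4 at -2.03 ± 0.021 and Gpm6a at -2.33 ± 0.0381. Wt1, a transcription factor that mesothelium shares with visceral fat progenitors, fell from 181 ± 1.06 to 71.1 ± 2.04 CPM. The member that rose was Igfbp2, which encodes a secreted binder of insulin-like growth factors, at 1.67 ± 0.0555 log2. In CD cells given TGF-b1, which share the CD mock libraries as their controls, the mesothelial list summed to 1076 to 1099 CPM per library, and to 3676 to 3698 CPM with SB431542 added.

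Endothelial markers were lower as well. Of 16 tested, 13 fell and 2 rose, the median was -1.65 log2, and the summed level was 756 to 775 CPM in CD and 473 to 481 CPM in HFD. Cdh5, the cadherin of endothelial junctions, was at 129.5, 127 and 121 CPM in the CD libraries and 34.3, 34.7 and 37.9 CPM in the HFD libraries, and Pecam1, the adhesion molecule CD31, was at 79.4, 77.9 and 72.99 CPM in the CD libraries and 19.99, 19.9 and 21.6 CPM in the HFD libraries. HFD libraries lay below every CD library for both. Their log2 fold changes were -1.82 ± 0.041 and -1.90 ± 0.0535. Kdr, the main VEGF receptor, fell by 1.59 log2. The exceptions Flt1, another VEGF receptor, and Eng, a TGF-b co-receptor that stromal cells also express, rose by 0.28 and 0.12, the latter with no call under scaling by total counts. Markers of mural cells, the pericytes and smooth muscle around vessels, split into 4 higher and 6 lower of 12. Rgs5, a pericyte gene, fell from 96.1 ± 1.9 to 47.8 ± 0.765 CPM and the ion channel genes Abcc9 and Kcnj8 were lower, at -1.58 and -2.19 log2, whereas Myh11, a smooth muscle myosin, rose by 0.46 and Cnn1, which myofibroblasts also express, by 2.39. All 4 epithelial markers tested fell, among them Cldn3 and Spint2 at -1.97 and -1.82 log2. Kit and Ear1, the mast cell and eosinophil markers tested, fell, Kit from 20.4 ± 1.71 to 7.52 ± 1.24 CPM. Of 5 nerve and glial markers tested, 1 rose and 2 fell, with Mbp, myelin basic protein, going from 65.9 ± 3.27 to 29.6 ± 1.01 CPM.

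**Figure D1:**
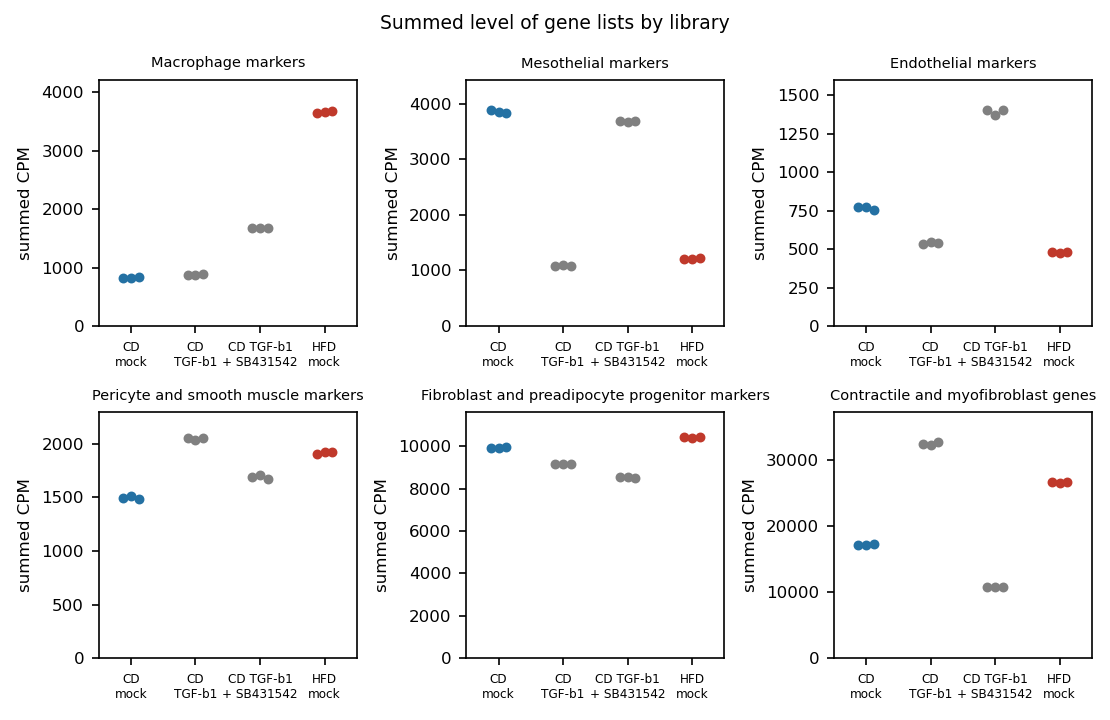
Summed CPM of 6 gene lists (y axis, from 0) in each library (points) of the CD mock, CD TGF-b1, CD TGF-b1 with SB431542 and HFD mock groups. The 3 HFD libraries lie above all CD mock libraries for macrophage markers and below them for mesothelial and endothelial markers.

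Progenitor markers were mixed. Of 33 tested, 10 rose and 20 fell, with a median of -0.30 log2, while the summed level was 9913 to 9946 CPM in CD and 10404 to 10452 CPM in HFD. Cd34, a surface sialomucin of adipose progenitors that endothelium also carries (mm10 chromosome 1, 194938821 to 194961292), was at 139, 142 and 145 CPM in the CD libraries and 28.5, 27.8 and 27.6 CPM in the HFD libraries. Dpp4, the CD26 peptidase of interstitial progenitors, was at 128, 128 and 129 CPM in the CD libraries and 40.7, 40.4 and 41.4 CPM in the HFD libraries. The ranges of the 2 diets were far apart for both genes, with log2 fold changes of -2.34 ± 0.0419 and -1.65 ± 0.0416. Pi16, found in the same interstitial cells, fell from 10.4 ± 0.924 to 4.09 ± 0.853 CPM, and Sema3c and the complement regulator Cd55 were lower, at -2.10 and -1.05 log2. Dlk1, the preadipocyte factor Pref-1, which holds back adipogenesis, fell from 36.6 ± 2.75 to 5.41 ± 0.592 CPM (-2.77 ± 0.0931 log2). The proteoglycans Dcn and Lum fell, at -1.2 and -0.75 log2, and so did Ly6a, the stem cell antigen, at -0.55. Members that rose included the stromal antigen Thy1 by 0.41, the tetraspanin Cd9 by 0.40 and the tissue factor gene F3 by 0.49. The highest was Creb5, a transcription factor, at 0.88, while the lowest member of the list was at -3.15. Cd34 was lower also in CD cells with TGF-b1, at 14.5 ± 1.47 CPM, and was at 224 ± 4.34 CPM with SB431542 added.

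**Figure D2:**
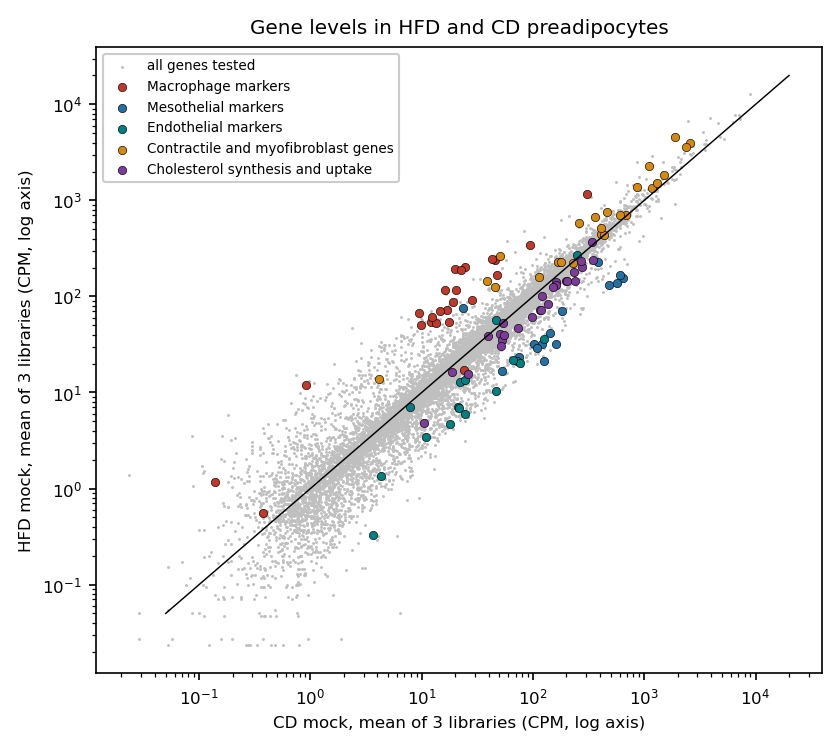
Mean CPM of each tested gene in HFD mock (y axis, log scale) against CD mock (x axis, log scale), 3 libraries each, with 5 gene lists coloured and the line of equal level; genes at 0 in either group are not drawn. Most macrophage and contractile genes lie above the line, with Mertk and Myh10 below it, and mesothelial, endothelial and cholesterol genes lie mostly below it.

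The genes with the largest differences were taken by level and fold from all genes tested. Only called genes whose CD and HFD libraries did not overlap were eligible. The 15 most increased genes at 10 CPM or more in HFD were Fat3, Cd72, Spn, Fcgr1, Slamf9, Fcrls, Sema4d, C1qa, Coro1a, Lair1, Dpep2, C1qb, C1qc, Evi2b and Ms4a7, with log2 fold changes from 2.99 to 4.36. Of these, Fcgr1, a high-affinity antibody receptor, and the 3 C1q chains stand on the macrophage list, and several others encode proteins of white blood cells, such as Coro1a, an actin-binding coronin, Spn, the sialophorin CD43, and Lair1, a collagen-binding inhibitory receptor. Cd72, a C-type lectin of B cells and myeloid cells, was at 2.37, 2.41 and 2.31 CPM in the CD libraries and 47.9, 46.4 and 46.2 CPM in the HFD libraries. Fat3, an atypical cadherin with no place on the marker lists, had 10, 8 and 9 counts in the CD libraries and 221, 181 and 208 in the HFD libraries. The lack of overlap in these genes follows from how they were chosen. The 15 most decreased genes were C7, Ppl, Dlk1, Enpp2, Krt19, Zbtb8b, Lratd1, Podxl, Gdf10, Adamts15, Celsr1, Cybrd1, Cyp2s1, Fmo2 and Cd34, from -2.98 to -2.34 log2. Podxl, podocalyxin, a sialomucin of podocytes, mesothelium and endothelium, was at 104, 114 and 105 CPM in the CD libraries and 19.4, 18.5 and 21.4 CPM in the HFD libraries. Ppl, periplakin, which links keratin filaments to junctions, was at 23.4, 24.6 and 25.4 CPM in the CD libraries and 3.699, 2.62 and 2.96 CPM in the HFD libraries, and Enpp2, the enzyme autotaxin that makes lysophosphatidic acid, fell from 13.2 ± 0.352 to 2.2 ± 0.652 CPM.

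**Figure D3:**
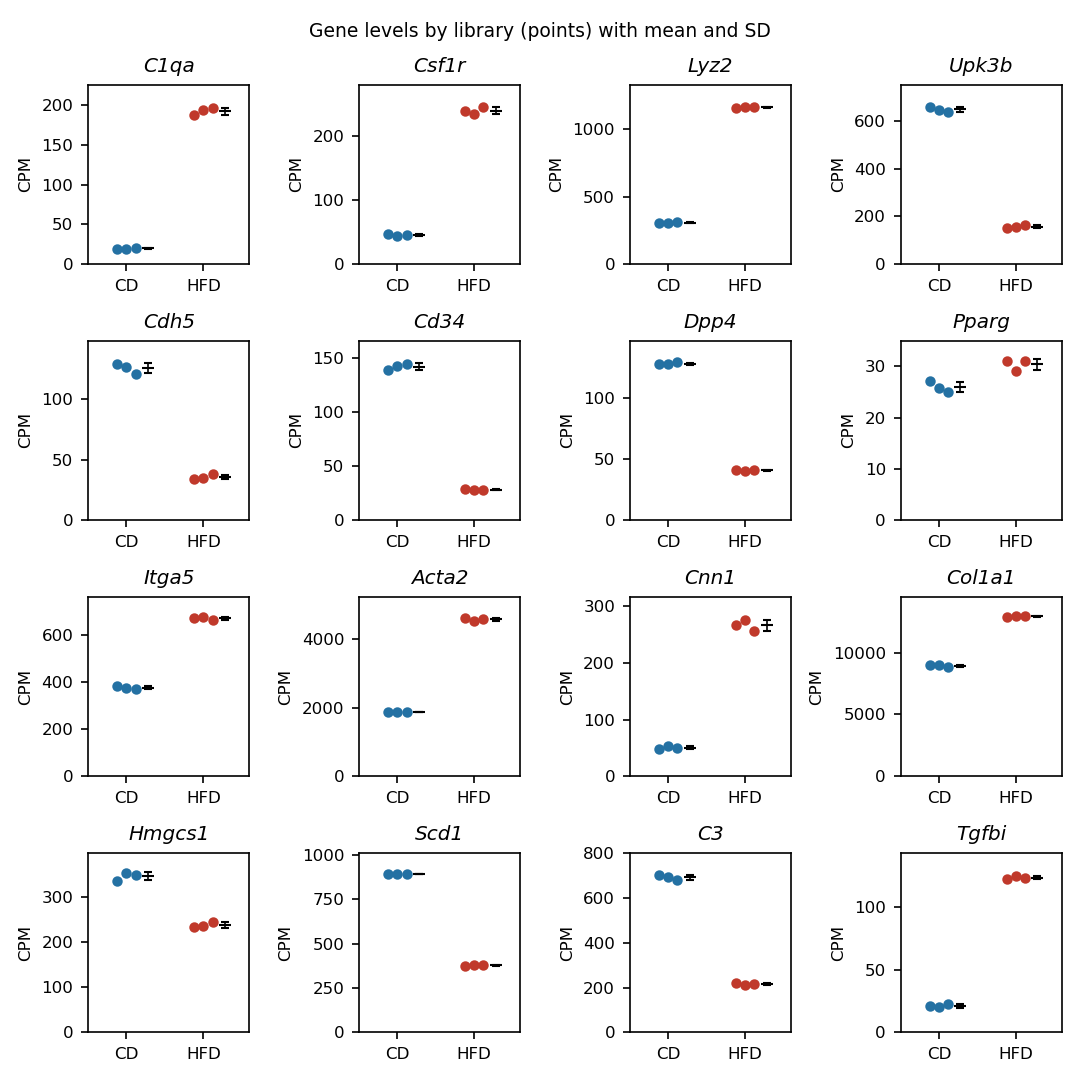
CPM (y axis, from 0) of 16 genes in the 3 CD and 3 HFD mock libraries (points), with the mean and SD beside them. The libraries of the 2 diets do not overlap for any gene shown. The genes were picked for the figure, and 58% of all genes tested had no overlap.

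Contractile and myofibroblast genes were higher in HFD almost throughout. Of 24 tested, 22 rose and none fell by the test, with a median of 0.54 log2, and the list summed to 17227 to 17259.6 CPM in CD and 26614 to 26746 CPM in HFD. Acta2, the smooth muscle actin that defines myofibroblasts (mm10 chromosome 19, 34240336 to 34255373), was at 1889.9, 1872 and 1876 CPM in the CD libraries and 4607, 4519 and 4602 CPM in the HFD libraries, a log2 fold change of 1.28 ± 0.00912 (adjusted p = 1.62e-72). Cnn1, calponin, was at 47.98, 53.3 and 49.9 CPM in the CD libraries and 267, 276 and 255 CPM in the HFD libraries, a log2 fold change of 2.39 ± 0.0332. Tagln, transgelin, was at 1115, 1127 and 1096 CPM in the CD libraries and 2271, 2262 and 2262 CPM in the HFD libraries. The diets were separated in all 3 genes by many times their spread. Actg2, another smooth muscle actin, rose by 1.91, the actin nucleator Lmod1 by 1.46, the myosin light chain gene Myl9 by 1.17 and the tropomyosin Tpm2 by 0.90. Genes of the actomyosin system that all cells use rose by less, Myh9 by 0.61, Flna by 0.61 and Actn1 by 0.67. The 2 members not called were Cnn3, at 0.01 log2, and Myh10, at -0.05. When libraries were scaled by total counts, these 2 genes were called lower, and Myh10 was also called lower without CD replicate 2, without HFD replicate 1 and with the 6 libraries alone. The mural cell markers, which share Cnn1 with this list, gave 4 higher and 6 lower in the same libraries, and their part in this result was not tested.

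TGF-b target genes were mostly higher in HFD. Of 23 tested, 18 rose and 4 fell, with a median of 0.31 log2. Tgfbi, a secreted matrix protein that TGF-b induces and that macrophages also make, was at 20.7, 19.95 and 22.7 CPM in the CD libraries and 122, 125 and 123 CPM in the HFD libraries. Thbs1, thrombospondin, which binds and activates latent TGF-b, was at 2452, 2489 and 2455 CPM in the CD libraries and 6743, 6778 and 6782 CPM in the HFD libraries. For both of them the lowest HFD library was above the highest CD library, and the log2 fold changes were 2.55 ± 0.0484 and 1.46 ± 0.00822. Ccn2, connective tissue growth factor, rose from 1179 ± 4.45 to 2907 ± 16.5 CPM and Ltbp2, a matrix protein of the latent TGF-b binding family, from 790.4 ± 2.79 to 1446 ± 7.01 CPM. Feedback inhibitors of the pathway rose by less, Smad7 by 0.36, Pmepa1 by 0.32 and Skil by 0.22, and the transcription factor Snai1 by 0.67. Those that fell included Id1 and Id3, inhibitors of helix-loop-helix factors that BMPs induce, at -0.37 and -0.11, and the CDK inhibitor Cdkn2b at -0.35.

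Ligands and receptors of the TGF-b family did not move as one. Of 24 tested, 13 rose and 8 fell. Inhba, the subunit of activin A, was at 129.5, 127 and 123 CPM in the CD libraries and 419, 417 and 425 CPM in the HFD libraries, a log2 fold change of 1.73 ± 0.0215 with no overlap. Inhbb rose by 0.55, and the follistatin-like antagonist Fstl3, which binds activins, by 0.67. Gdf15, a stress-induced member of the family, rose from 17.2 ± 0.487 to 45.6 ± 4.45 CPM. The log2 fold changes of the TGF-b ligands were 0.27 ± 0.0319 for Tgfb1, 0.14 ± 0.0499 for Tgfb2, whose call was lost under 4 settings, and 0.43 ± 0.0205 for Tgfb3. Of the receptors, Tgfbr1 rose by 0.16 while Tgfbr2 and the co-receptor Tgfbr3 fell, at -0.20 and -0.33 log2. Smad3, the signal transducer that the series' title names, was at 137, 134 and 138 CPM in the CD libraries and 65.9, 69.7 and 68.8 CPM in the HFD libraries, a log2 fold change of -0.999 ± 0.0352 (adjusted p = 2.33e-34), so its transcript was lower in HFD in every library. Smad2 and Smad4 were not called, at -0.03 and 0.06 log2, though Smad2 was called lower with total counts and Smad4 higher without CD replicate 1 or HFD replicate 1.

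The same genes can be set beside the CD cells that were given TGF-b1, whose comparison uses the same CD mock libraries. Acta2 was at 1879 ± 9.4 CPM in CD mock, 5817 ± 92.7 CPM with TGF-b1, 880.4 ± 2.11 CPM with TGF-b1 and SB431542, and 4576 ± 49.4 CPM in HFD mock. Tagln was at 1113 ± 15.4, 3091 ± 17, 462 ± 5.15 and 2265 ± 5.22 CPM in that order. In both genes HFD mock lay between CD mock and TGF-b1. Smad3 was at 136 ± 2.32, 60.6 ± 3.32, 125 ± 3.34 and 68.1 ± 2 CPM, with the TGF-b1 and HFD groups the low ones. Tgfbi was at 21.1 ± 1.42, 37.7 ± 1.4, 18.6 ± 0.718 and 123 ± 1.39 CPM and Col8a1, a short-chain collagen, at 333 ± 2.8, 699 ± 14.6, 141 ± 2.95 and 1075 ± 7.09 CPM. For these latter genes HFD was the highest of the 4 groups. Other genes and lists moved in opposite directions with TGF-b1 and in HFD. Tnc was at 404 ± 0.709 CPM in CD mock, 337 ± 5.65 CPM with TGF-b1 and 841 ± 11.2 CPM in HFD mock. Lysosomal genes summed to 13654 to 13707 CPM, 11374 to 11533 CPM and 16775 to 16860 CPM in these groups. The prostaglandin list summed to 1159 to 1183 CPM, 1636 to 1651 CPM and 737 to 746 CPM.

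**Figure D4:**
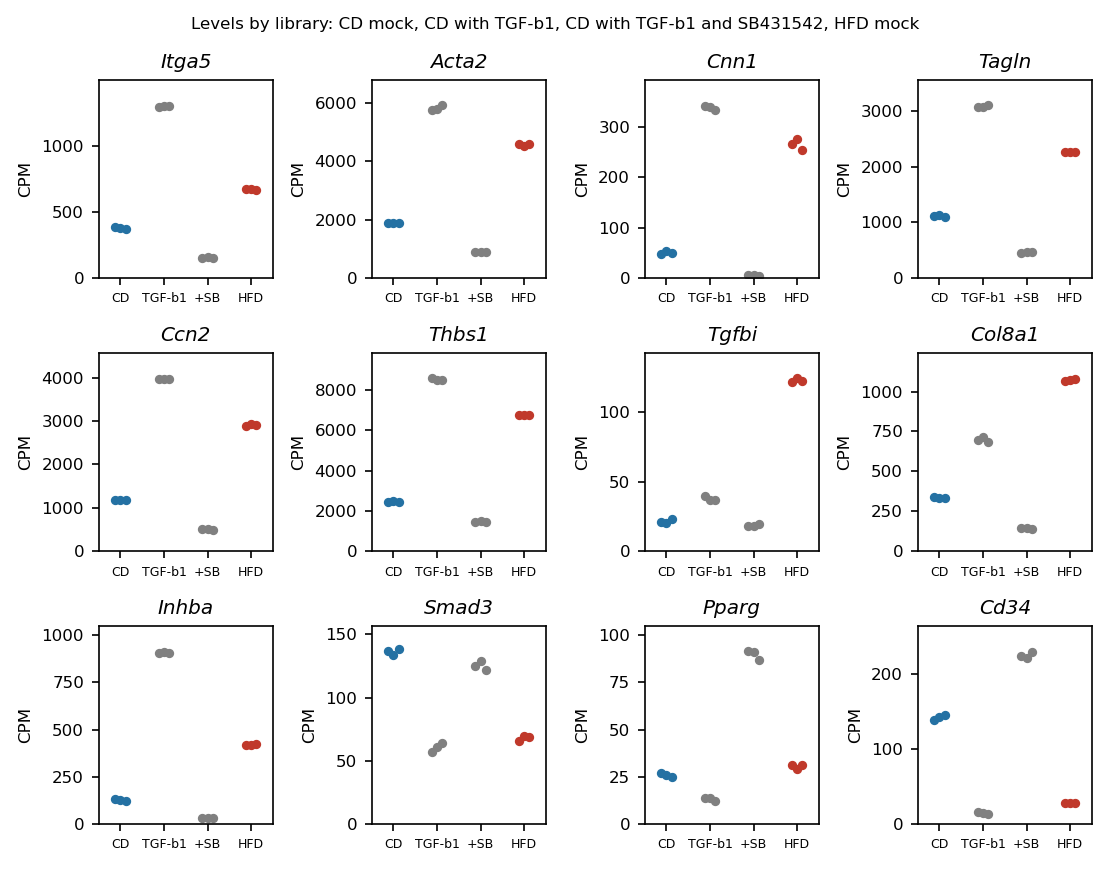
CPM (y axis, from 0) of 12 genes by library (points) in CD mock, CD with TGF-b1, CD with TGF-b1 and SB431542 (marked +SB) and HFD mock. Acta2, Itga5, Tagln, Ccn2, Thbs1 and Inhba have HFD values between those of CD mock and of TGF-b1, Tgfbi and Col8a1 are highest in HFD, and Pparg in HFD exceeds CD mock.

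Integrins, the receptors by which cells hold matrix, rose in 13 of 21 tested and fell in 7. Itga5, the fibronectin receptor subunit CD49e on which the series sorted cells (mm10 chromosome 15, 103344286 to 103366791), was at 383, 376 and 369 CPM in the CD libraries and 673, 675 and 662 CPM in the HFD libraries, a log2 fold change of 0.83 ± 0.0158 (adjusted p = 5.85e-49) with no overlap. Its partner Itgb1 rose by 0.23 and Fn1, which encodes the fibronectin it binds, by 0.14. The collagen-binding Itga11, an integrin of myofibroblasts, went from 129.7 ± 3.95 to 275 ± 5.75 CPM. The largest rises in the list, apart from Itga4 at 2.34, were those of Itgam, Itgax and Itgb2 (1.63), the leukocyte integrins. Macrophage markers summed to 3648 to 3682 CPM in HFD against 814 to 832 CPM in CD, and their part in the integrin values was not tested. Itga3, a laminin receptor, and Itgb8, which activates latent TGF-b, fell, at -1.61 and -1.66 log2. YAP and TAZ targets, genes induced by stretch and stiff matrix, rose in 14 of 21 and fell in 4, or 11 and 6 with total counts. Ankrd1 was at 59.6, 54.8 and 55.6 CPM in the CD libraries and 240.1, 237 and 235 CPM in the HFD libraries, a log2 fold change of 2.07 ± 0.0315, and Ccn1, a matricellular protein, rose by 0.71. Igfbp3, an IGF-binding protein on the same list, was lower, at 667, 658 and 651 CPM in the CD libraries and 241, 245 and 245 CPM in the HFD libraries.

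Collagen genes changed in both directions. Of 27 chains tested, 9 rose and 15 fell, with a median of -0.42 log2, so the share lower was above that of all genes, while the list summed to 31974 to 32105 CPM in CD and 38842 to 39064 CPM in HFD. Col1a1, the main chain of fibrillar type I collagen (mm10 chromosome 11, 94936224 to 94953042), was at 8965, 8963 and 8863 CPM in the CD libraries and 12912, 12978 and 12974 CPM in the HFD libraries, a log2 fold change of 0.54 ± 0.00616. Col8a1 was at 336, 331 and 332 CPM in the CD libraries and 1068, 1074 and 1082 CPM in the HFD libraries, and Col5a1, of the type V collagen that starts fibrils, at 892, 879.8 and 914 CPM in the CD libraries and 1758, 1775 and 1770.1 CPM in the HFD libraries. The HFD libraries were the higher ones for these chains. Col12a1, a fibril-associated chain, rose by 0.84 and Col1a2, the partner of Col1a1, by 0.24. Type III and type VI chains behaved otherwise, with Col3a1 at -0.28, Col6a1 at -0.91 and Col6a2 at -0.76 log2 while Col6a3 rose by 0.45. Among basement membrane chains, Col4a1 and Col4a2 rose by 0.16 and 0.21, whereas Col4a5 and Col4a6, neighbours on chromosome X, were at -0.47 and -1.86. Col18a1, the source of endostatin, fell from 138 ± 1.73 to 66.4 ± 2.86 CPM.

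Other matrix proteins were split, with 16 higher and 23 lower of 40. Spp1, osteopontin, a matrix cytokine of macrophages and stroma, was at 61.3, 57.7 and 57.8 CPM in the CD libraries and 375, 385 and 373 CPM in the HFD libraries, a log2 fold change of 2.68 ± 0.0286. Thbs2 rose from 867 ± 10.7 to 2496 ± 17.6 CPM and Tnc, tenascin C of wounds and fibrosis, from 404 ± 0.709 to 841 ± 11.2 CPM. Among the members that fell were Eln, elastin, at 112, 114 and 109 CPM in the CD libraries and 27.95, 32.4 and 31.2 CPM in the HFD libraries, and Dcn, decorin, which binds collagen and TGF-b, at 971, 969.7 and 993 CPM in the CD libraries and 427, 424 and 422 CPM in the HFD libraries. No CD library overlapped the HFD range in Eln or Dcn. Tnxb, tenascin X, was at -1.87, Mfap4 at -1.13 and Ogn at -1.09 log2, all lower, but fibrillin-1, Fbn1, rose by 0.47. Enzymes that modify and crosslink collagen rose in 16 of 24 and fell in 5, or 14 and 8 with scaling by total counts. P4ha3, a prolyl hydroxylase, was the most increased at 1.47 ± 0.0597 log2, followed by the crosslinking oxidases Loxl3 and Lox at 0.73 ± 0.0235 and 0.63 ± 0.00784. Metalloproteases and inhibitors rose in 9 and fell in 15 of 26. Adam8, a protease of myeloid cells, rose from 45.5 ± 1.04 to 267 ± 0.946 CPM, Mmp3, stromelysin, fell from 182 ± 0.449 to 45.3 ± 3.35 CPM, and Timp3, a matrix-bound inhibitor, fell from 1427 ± 7.2 to 649 ± 19.9 CPM.

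Adipogenic transcription factors were called about as often as genes in general. Of 27 tested, 7 rose and 7 fell, 25.9% each, against 27.2% and 26.8% of all genes. Total-count scaling gave 6 and 13. The list also holds Dlk1, its lowest member at -2.77 log2. Ccn5, which it holds under the older name Wisp2, was not counted and is given at the end. Pparg, the central adipogenic factor (mm10 chromosome 6, 115360951 to 115490401), was at 27.1, 25.8 and 25.02 CPM in the CD libraries and 31.1, 29.2 and 31.03 CPM in the HFD libraries, a log2 fold change of 0.23 ± 0.0632 (adjusted p = 0.00139). Cebpa was at 132, 139 and 129 CPM in the CD libraries and 175, 185 and 180.1 CPM in the HFD libraries, a log2 fold change of 0.43 ± 0.028. The HFD libraries were higher for both, by small steps next to those of the lists above. Ebf1 and Ebf2, early factors of the lineage, rose by 0.58 and 0.37 and Zfp423, which commits preadipocytes, by 0.62. Cebpb, which comes before Cebpa in adipogenesis, and Cebpd were not called, at 0.02 and -0.05 log2, and were called lower with total counts. Klf9 and Gata2, the latter a restraint on adipogenesis, fell, at -0.50 and -0.45 log2.

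Genes of mature fat cells were mostly lower in HFD, and many were near the limit of detection. Of 28 tested, 19 fell and 5 rose, with a median of -0.90 log2. Lpl, lipoprotein lipase, was at 1103, 1106 and 1126 CPM in the CD libraries and 782, 786 and 788 CPM in the HFD libraries, and Fabp4, the fatty acid carrier aP2, was at 155, 155 and 159 CPM in the CD libraries and 93.4, 92.99 and 97.9 CPM in the HFD libraries, with log2 fold changes of -0.50 ± 0.0119 and -0.72 ± 0.0287. Each HFD library was below each CD library. Adipoq, which encodes adiponectin, had 54, 49 and 44 counts in the CD libraries and 3, 2 and 7 in the HFD libraries, Plin1, the perilipin of fat droplets, had 102, 122 and 125 counts in the CD libraries and 7, 10 and 15 in the HFD libraries, and Cfd, adipsin, had 64, 109 and 67 counts in the CD libraries and 0, 1 and 1 in the HFD libraries. These fat cell genes thus had few counts in CD and fewer still in HFD. The members that rose included Cd36, a fatty acid transporter that macrophages also carry, from 142 ± 4.46 to 267 ± 6.06 CPM, with Acsl1 at 0.48, Fabp5 at 0.34 and Plin2 at 0.33 log2. Thermogenic genes fell in 8 and rose in 2 of 20 tested, most of them under 5 CPM in both diets. Adrb3, the adrenergic receptor of fat cells, had 37, 55 and 44 counts in the CD libraries and 12, 8 and 10 in the HFD libraries, and Ppargc1a, the coactivator PGC-1a, had 19, 20 and 23 counts in the CD libraries and 10, 9 and 8 in the HFD libraries. The check genes Ucp1 and Lep were not analysed here.

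Cholesterol synthesis genes were lower almost as a block. Of 26 tested, 22 fell and 1 rose, with a median of -0.47 log2. Hmgcs1, shown above with its sterol element, was at 336, 353 and 349 CPM in the CD libraries and 234, 235 and 245 CPM in the HFD libraries, a log2 fold change of -0.54 ± 0.0217. No HFD library lay within the CD range. Fdft1, Lss and Sqle, the enzymes from squalene synthesis to lanosterol, fell, at -0.72, -0.66 and -0.30 log2. Tm7sf2, a sterol reductase, had the largest difference at -1.15 ± 0.122. Fatty acid and triglyceride synthesis followed, with 16 lower and 2 higher of 26, or 20 and 0 with total counts, and 1 higher without CD replicate 2, CD replicate 3 or HFD replicate 1. Scd1, the desaturase, was at 889.9, 893 and 893 CPM in the CD libraries and 374, 380.4 and 379 CPM in the HFD libraries, a log2 fold change of -1.24 ± 0.0142, and Fads2, Elovl6 and Fasn were at -0.76, -0.97 and -0.27 log2. Mgll, which breaks down monoglycerides, fell from 38.5 ± 1.63 to 12.5 ± 1.55 CPM. Genes of cholesterol efflux gave 6 higher and 6 lower of 16, and their median of 0.01 log2 turned negative under several settings. The exporter Abcg1 rose from 11.2 ± 0.595 to 21.8 ± 1.85 CPM while Abca1 fell from 201 ± 0.617 to 144 ± 2.95 CPM.

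In energy metabolism the glycolytic genes were higher. Of 22 tested, 15 rose and 6 fell, with a median of 0.21 log2, or 0.13 with scaling by total counts. Ldha, lactate dehydrogenase A, was at 666, 659 and 647 CPM in the CD libraries and 836, 827 and 831 CPM in the HFD libraries, and Pgk1 was at 305, 317 and 303 CPM in the CD libraries and 397, 389 and 403 CPM in the HFD libraries. HFD exceeded CD in each library, with log2 fold changes of 0.34 ± 0.0133 and 0.36 ± 0.0194. Ldhb, the other lactate dehydrogenase subunit, went the other way, from 58 ± 2.32 to 21.9 ± 2.09 CPM, as did the lactate transporter Slc16a1, from 95.2 ± 4.35 to 43.1 ± 2.84 CPM. Fatty acid oxidation gave 6 higher and 9 lower of 27, or 5 and 14 with scaling by total counts. The shares were 22.2% and 33.3%, against 27.2% and 26.8% of all genes. Pdk4, which holds back glucose oxidation, rose from 7.65 ± 0.129 to 19.7 ± 0.923 CPM and Cpt1a, the gate of fatty acid entry into mitochondria, fell from 121 ± 1.72 to 84.2 ± 2.12 CPM. Nuclear genes of oxidative phosphorylation changed by small steps, with 4 higher and 11 lower of 32, 0 and 23 with total counts, 2 higher without HFD replicate 1, and a range of -0.32 to 0.14 log2. Hypoxia genes rose in 7 and fell in 8 of 20. Vegfa, the vessel growth factor, rose from 189 ± 2.02 to 293 ± 3.39 CPM and Egln3, an oxygen-sensing hydroxylase, fell from 46.9 ± 3.18 to 12.3 ± 0.41 CPM.

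**Figure D5:**
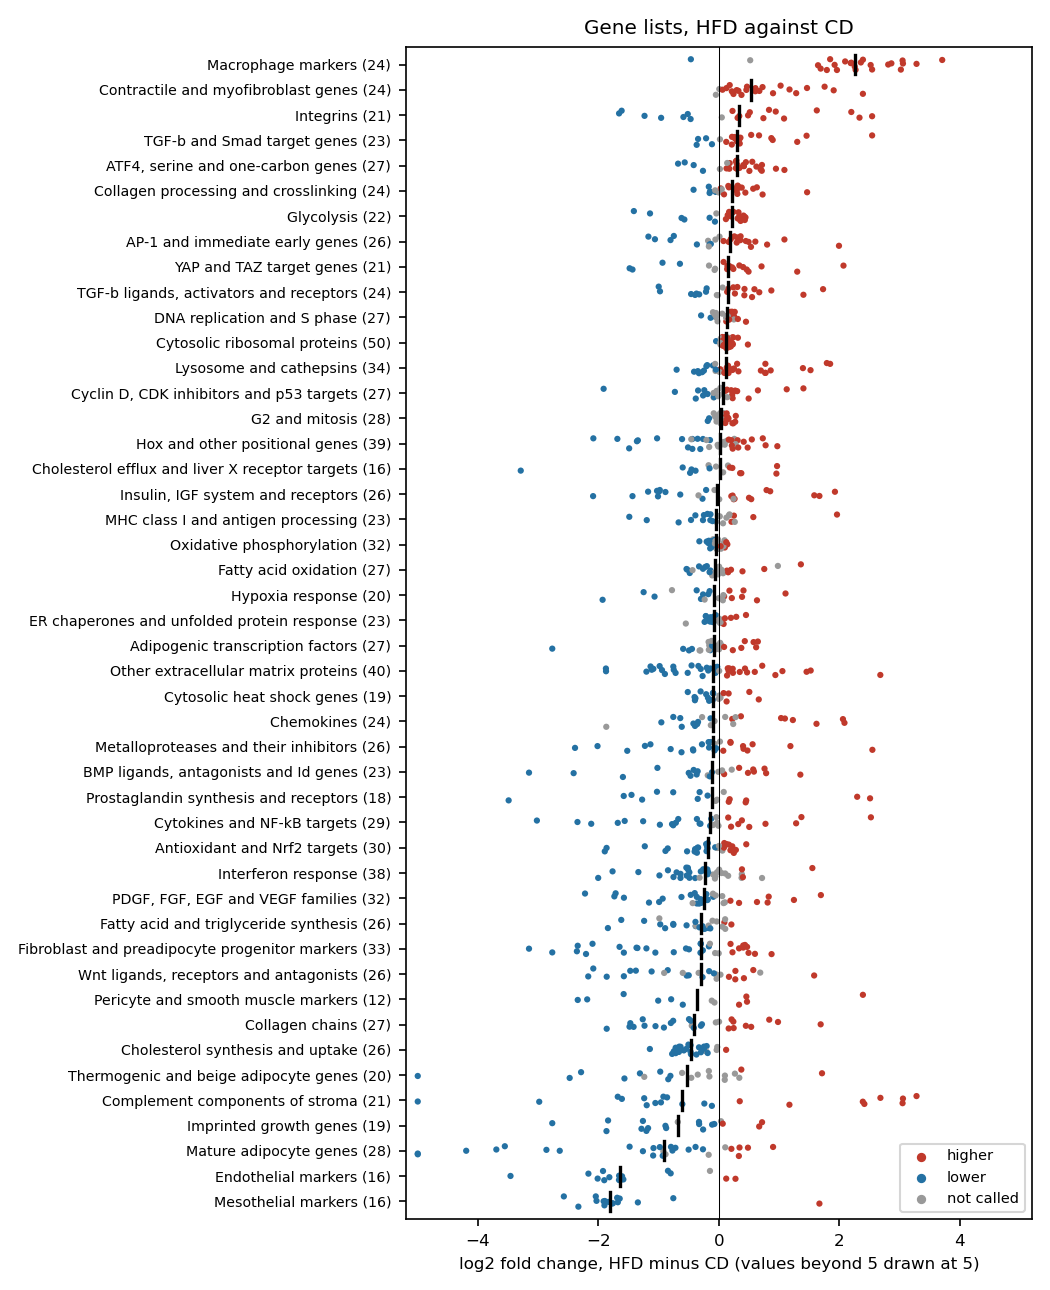
Log2 fold change of HFD minus CD (x axis) for each tested member (points; red higher, blue lower, grey not called) of the gene lists with at least 12 tested members, ordered by the median (black bar), with the number tested in brackets. Macrophage markers are at the top, followed by contractile genes, and mesothelial and endothelial markers are at the bottom.

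Inflammatory genes did not rise together. Of 29 cytokine and NF-kB target genes tested, 9 rose and 16 fell. Il6 went from 10.9 ± 0.599 to 18.7 ± 2.02 CPM and Tnf, a cytokine of macrophages, had 10, 13 and 15 counts in the CD libraries and 77, 72 and 91 in the HFD libraries. Vcam1, an adhesion molecule for leukocytes, was at 388, 373 and 376 CPM in the CD libraries and 159, 161 and 156 CPM in the HFD libraries, and Saa3, an acute-phase protein of stroma, at 55.4, 52.8 and 55 CPM in the CD libraries and 17.2, 18.7 and 19.2 CPM in the HFD libraries. The latter 2 genes were lower in every HFD library, with log2 fold changes of -1.26 ± 0.0236 and -1.56 ± 0.0587. Il33, an alarmin of stromal cells, fell from 6.51 ± 0.934 to 1.298 ± 0.452 CPM. Chemokine genes gave 8 higher and 9 lower of 24, with a range of -1.87 to 2.09 log2. The shares were 33.3% and 37.5%, against 27.2% and 26.8% of all genes. Ccl7 and Ccl2, which draw monocytes, rose from 50.5 ± 0.753 to 104 ± 2.87 CPM and from 92.4 ± 0.533 to 119 ± 3.83 CPM, Ccl9 by 1.23 and Cxcl14 by 1.62, while Cxcl12, which retains blood progenitors in the marrow, fell from 1270.1 ± 14.1 to 989.6 ± 9.55 CPM. The macrophage list was 4.47 times higher in HFD in the same libraries, and its part in the chemokine values was not tested.

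Interferon response genes were lower. Of 38 tested, 22 fell and 3 rose, with a median of -0.24 log2. Oasl2 was at 48.95, 44.2 and 49.9 CPM in the CD libraries and 18.99, 18.9 and 18.6 CPM in the HFD libraries. It was lower in all HFD libraries, with a log2 fold change of -1.34 ± 0.0619. Oasl1 and Bst2, antiviral proteins, fell, at -1.77 and -0.54 log2. Genes of MHC class I and antigen processing fell in 11 and rose in 4 of 23, with Tapbp, tapasin, at -0.67, H2-K1 at -0.25 and H2-D1 at 0.25 log2. As class I genes are near copies of one another, reads may have been divided between them and the single values are uncertain. MHC class II genes, which macrophages carry, were low and rose in 5 of 6 tested, Cd74, the invariant chain, from 3.31 ± 0.1 to 12.6 ± 1.54 CPM and H2-DMb1 from 10.4 ± 0.725 to 16.99 ± 0.339 CPM.

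Complement genes moved in both directions. The C1q chains, C3ar1 (2.39), C5ar1 (2.68) and Cfp (2.42), all known from macrophages, were higher, and 13 of the 21 genes tested were lower. C3, the central component, was at 704, 695 and 682 CPM in the CD libraries and 221, 211 and 218 CPM in the HFD libraries, a log2 fold change of -1.68 ± 0.0206. HFD libraries were the low ones. C1s1 and C1ra, the proteases that pair with C1q, fell, at -0.92 and -0.86 log2, C7 from 12.9 ± 1.58 to 1.603 ± 0.21 CPM and Clu, clusterin, from 184 ± 9.64 to 60.2 ± 2.54 CPM. In the prostaglandin list 6 rose and 9 fell of 18, or 4 and 10 with total counts. Ptgis, prostacyclin synthase, was at 418, 412 and 422 CPM in the CD libraries and 154, 152 and 152 CPM in the HFD libraries, and Ptgs1, the cyclooxygenase COX-1, at 293, 294 and 284 CPM in the CD libraries and 120.4, 118 and 122 CPM in the HFD libraries, both without overlap. Ptgs2, COX-2, fell by 0.76 log2. Hpgds and Tbxas1, synthases of prostaglandin D and thromboxane in blood cells, rose from 5.71 ± 0.773 to 27.8 ± 1.43 CPM and from 2.72 ± 0.418 to 15.3 ± 1.55 CPM. Lysosomal genes rose in 20 and fell in 10 of 34, or 16 and 15 with total counts, led by Ctss (1.85), Cd68 (1.79), both also on the macrophage list, and Ctsc (1.52). Gpnmb, a glycoprotein of lipid-loaded macrophages, was at 696, 679 and 686 CPM in the CD libraries and 1170.3, 1175 and 1175 CPM in the HFD libraries, and Ctsd, cathepsin D, at 1471, 1458 and 1459.6 CPM in the CD libraries and 2493, 2472 and 2509.8 CPM in the HFD libraries.

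Genes of proliferation differed by small steps. S phase genes rose in 13 and fell in 2 of 27, with a median of 0.14 log2, but 6 rose and 6 fell with scaling by total counts, where the median was 0.058, and 4 fell without HFD replicate 3. Mitotic genes rose in 12 and fell in 2 of 28, or 3 and 6 with total counts, where their median of 0.04 log2 changed sign. With 1 library left out 8 to 11 rose, and with DESeq2 9 rose. The number lower was 1 with DESeq2 and without CD replicate 3, HFD replicate 1 or HFD replicate 3. Mki67, the Ki-67 antigen of dividing cells, was at 294, 287 and 282 CPM in the CD libraries and 353, 346 and 343 CPM in the HFD libraries, and Ccne2, an S phase cyclin, rose by 0.45. Mybl2, a mitotic transcription factor, rose by 0.24 ± 0.0833 log2 and lost its call with scaling by total counts, without CD replicate 3 and without HFD replicate 1 (adjusted p = 0.104, 0.192 and 0.15). Among the cyclin D, CDK inhibitor and p53 genes 12 rose and 8 fell of 27, or 8 and 10 with total counts, where their median of 0.06 log2 turned negative. Ccnd1, cyclin D1, was at 52.6, 48.04 and 49.6 CPM in the CD libraries and 112, 108 and 108 CPM in the HFD libraries, and the p53 target Cdkn1a rose from 158 ± 2.9 to 222 ± 5.19 CPM. Perp, a junction protein that p53 also induces, fell from 21.3 ± 0.864 to 5.65 ± 0.55 CPM. Ribosomal protein genes rose in 41 and fell in 1 of 50 by a median of 0.12 log2, and in 22 against 5 by 0.040 with total counts.

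Amino acid response genes under ATF4, the factor that cells raise when amino acids are short or proteins misfold, were higher. Of 27 tested, 21 rose and 4 fell, with a median of 0.30 log2. Trib3, a pseudokinase that ATF4 induces, was at 12.6, 12.5 and 10.7 CPM in the CD libraries and 22.98, 21.7 and 24.3 CPM in the HFD libraries, and Asns, asparagine synthetase, was at 111, 105 and 116 CPM in the CD libraries and 163, 172 and 175 CPM in the HFD libraries. No HFD library fell within the CD range for these 2 genes. Mthfd2, of mitochondrial folate metabolism, rose by 0.69, Ddit3, the factor CHOP, by 0.71 and Atf3 by 1.09. ER chaperones and genes of the unfolded protein response were lower in 12 and higher in 5 of 23 (15 and 3 with total counts, 3 higher without CD replicate 2), by small steps such as -0.24 for Pdia4 and -0.10 for Hspa5, the chaperone BiP. Cytosolic heat shock genes gave 5 higher and 11 lower of 19, or 3 and 12 with total counts, with Hspa1b at 0.66 and Hspb1 at -0.52. How reads were divided between Hspa1b and its near copy Hspa1a is not stated, so the single value is uncertain. Antioxidant genes fell in 17 and rose in 9 of 30, or 20 and 5 with total counts. The glutathione transferases Gsta3 and Gsta4, which are similar in sequence, fell, at -1.89 and -1.86 log2. The metallothioneins Mt1 and Mt2, which bind zinc, were at 448, 436 and 439 CPM in the CD libraries and 246, 239 and 248 CPM in the HFD libraries and at 329.7, 344 and 329.8 CPM in the CD libraries and 140.4, 142 and 146 CPM in the HFD libraries in that order, without overlap. AP-1 and immediate early genes rose in 15 and fell in 7 of 26, or 13 and 10 with total counts, Fos from 64.8 ± 1.57 to 113 ± 3.32 CPM and Fosb from 2.77 ± 0.0368 to 11.1 ± 0.169 CPM, while Dusp5 and Spry2, brakes on ERK signalling, fell, at -1.17 and -0.80 log2.

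Growth factor genes were more often lower than higher. Of 32 genes of the PDGF, FGF, EGF and VEGF families tested, 7 rose and 19 fell. Fgf1, a growth factor of fat, was at 53.96, 58.2 and 56.03 CPM in the CD libraries and 12.2, 11.4 and 12.4 CPM in the HFD libraries, and Met, the hepatocyte growth factor receptor, was at 97.5, 93.96 and 92.4 CPM in the CD libraries and 29.5, 28.7 and 28.2 CPM in the HFD libraries. In both the CD libraries were higher throughout, whereas Hgf, the ligand of Met, rose from 10.6 ± 1.45 to 18.9 ± 0.629 CPM. Ereg, an EGF receptor ligand, rose by 1.69 log2, and Fgf10, a factor for preadipocytes, fell by 0.93. The insulin and IGF list gave 11 higher and 11 lower of 26. Its binding proteins Igfbp4, Igfbp5 and Igfbp6 fell, at -1.03, -2.09 and -0.99 log2, and Pappa, a protease that cuts Igfbp4, rose from 15.9 ± 0.871 to 47.9 ± 0.767 CPM. Insr, the insulin receptor, fell from 40.4 ± 0.743 to 33.4 ± 1.84 CPM and Irs1, its substrate, rose from 37.99 ± 1.5 to 55.1 ± 1.2 CPM.

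Imprinted growth genes, which the parental copies express unequally, fell in 14 of 19 tested and rose in 3, with a median of -0.68 log2, which was -0.37 without HFD replicate 1. Grb10, a restraint on insulin signalling, was at 621, 604 and 598 CPM in the CD libraries and 329, 325 and 330.1 CPM in the HFD libraries, a log2 fold change of -0.89 ± 0.0165, and Plagl1 fell from 10.3 ± 0.468 to 4.21 ± 0.38 CPM. H19, Mest and Igf2, all active in embryonic growth, were low and fell, at -1.87, -1.84 and -1.18 log2. Peg10 was an exception at 204, 199 and 204 CPM in the CD libraries and 336, 331 and 330.1 CPM in the HFD libraries. The direction in Grb10 and Peg10 was therefore opposite, with no overlap in either.

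Wnt genes were lower more often than higher, at 13 against 6 of 26. Wnt4 was at 90.3, 90.3 and 86.1 CPM in the CD libraries and 25.6, 23.9 and 23.8 CPM in the HFD libraries, a log2 fold change of -1.86 ± 0.05, and Wnt2b fell by 2.09 log2. The secreted antagonists Sfrp1 and Sfrp2 fell from 605 ± 3.85 to 428 ± 8.35 CPM and from 85.6 ± 5.29 to 31.01 ± 0.106 CPM, and Axin2, a target of the pathway, from 9.28 ± 0.119 to 4.27 ± 0.0903 CPM. BMP genes gave 8 higher and 11 lower of 23, or 6 and 13 with total counts. Bmp4, a ligand that commits precursors to fat, was at 31.1, 29.9 and 28.01 CPM in the CD libraries and 9.603, 9.81 and 10.1 CPM in the HFD libraries, and Gdf10, a BMP3-like ligand, at 37, 36.7 and 37.4 CPM in the CD libraries and 7.26, 7.52 and 6.14 CPM in the HFD libraries. Both ligands were lower in HFD without overlap, while the antagonist Grem1 rose by 1.35 log2 and the receptor Bmpr1a fell by 0.50. Positional genes of the Hox clusters and related factors rose in 13 and fell in 14 of 39, or 9 and 17 with total counts, and their median of 0.02 log2 had no stable sign. The shares were 33.3% and 35.9%, against 27.2% and 26.8% of all genes. The HoxD genes tested, Hoxd3, Hoxd4, Hoxd8 and Hoxd9, fell, at -1.69, -1.49, -0.51 and -1.03 log2, whereas Hoxb2 and Hoxb4 rose by 0.55 and 0.41. Wnt4, Gdf10 and Hoxd3 moved in libraries in which mesothelial markers were 3.16 times lower, and the part of that list in their values was not tested.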

How the data were processed

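Poly(A) RNA of the cells was sequenced on an Illumina platform, per the labels' protocols. The submitters' processing notes name fastp, STAR, featureCounts and mm10. Their versions, the strandedness and how reads were divided among transcripts are not stated in the sources used here. The authors deposited estimated counts (expected counts) per RefSeq transcript, not scaled to library size, of which 32709 transcripts of 17001 gene symbols were summed per symbol and rounded. Gene ends are written 1 base below the deposited value, which lay past the RefSeq end for most genes.

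The 12 libraries of undifferentiated cells (4 groups of 3) were fitted together in R 4.3.3 with edgeR 4.0.16: filterByExpr defaults, TMM, a trended dispersion kept at 0.0001 or above since 3780 genes lay below it, glmQLFit and glmQLFTest, with Benjamini-Hochberg adjustment over all genes tested. The call needed an adjusted p under 0.05 and no minimum fold. The script was tested on simulated data. DESeq2 1.42.0 was 1 of 14 alternatives tried. Sums and promoter matches used Python 3.11.15, numpy 2.4.6 and pandas 2.3.3, and figures matplotlib 3.10.9. Promoters were taken for tested genes whose RefSeq start lay within 50 bases of the deposited one (76.8%).

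A total of 43 pathway and 10 marker lists were used, beside a list of sex genes. The lists and the comparison were chosen with earlier results of these data known. Named genes were check genes, the 15 most changed each way at 10 CPM or more without overlap, the most changed members of each list, and family members given with them. Some genes that the rule names are not reported here. The histone list matched no symbol. The table of differentiated cells was not used. Depth limits genes of few counts.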

Additional observations from a re-analysis of the deposited data

How the results depend on the processing

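The count of 7604 called genes was 3492 (1566 higher, 1926 lower) when a fold above 1.2 was required, because that test asks for more than any difference, and it was 6548 with DESeq2. Leaving out 1 library at a time gave 7041 to 7208 calls. Whether the replicate numbers pair the samples could not be decided. Deviations of same-numbered CD and HFD libraries correlated at -0.00486, 0.00578 and -0.00641 over 9847 genes, and no sample correlated best with its own number. At a chi-square per degree of freedom of 1.15 to 1.21, such deviations are mostly counting error, which could hide a shared preparation. A fit with a replicate block called 7544 genes and ended no call of a gene named here. Scaling by total counts moved the median over all tested genes, -0.0077 log2, to -0.0911 and, with it, reversed the medians of G2 and mitosis genes (-0.044) and of the cyclin D, CDK inhibitor and p53 list (-0.021) and the values of Vcl (-0.023), Cnn3 (-0.076) and Cebpb (-0.061). Medians near 0 had no stable sign. That of cholesterol efflux was -0.071 with total counts, -0.001 with the replicate block, -0.003 with DESeq2 and -0.048 to 0.069 with 1 library left out. The Hox median was -0.066 with total counts, -0.010 with no filter on low counts, -0.014 with DESeq2 and -0.020 to 0.030 with 1 library left out. The chemokine median ranged from -0.173 to 0.124 with 1 library left out and was positive without CD replicate 2. The cause of these changes was not tested. Of 4809 values recomputed for the 370 genes that the rule or the text names, 4784 kept their side of the threshold. Their direction was compared only where a fit called the gene, and there it was kept. Depth limits the genes of few counts, and counts are printed for most of them.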

Other observations

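Several genes on none of the lists also differed, and those given here were chosen after their values were seen, so they stand for no group. Of the phagocyte oxidase, which makes superoxide in white blood cells, Cybb was at 22.7, 21.3 and 22.8 CPM in the CD libraries and 86.9, 87.6 and 85.4 CPM in the HFD libraries, and Ncf1 rose from 7.94 ± 1.38 to 47.7 ± 1.2 CPM. The endosomal Toll-like receptors Tlr7, Tlr8 and Tlr13 rose by 2.15, 2.28 and 2.34 log2. Mmp12, the elastase of macrophages, was at 207, 208 and 212 CPM in the CD libraries and 679, 687 and 684 CPM in the HFD libraries, while the elastin gene Eln was lower in the same libraries. Ccn5, a secreted Wnt-induced protein of stroma that the adipogenic list holds under its older name Wisp2, was at 179, 175 and 179 CPM in the CD libraries and 628, 623 and 630.4 CPM in the HFD libraries, a log2 fold change of 1.82 ± 0.0201.

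Among the lower genes were several that encode junction proteins. Cxadr, a tight junction adhesion protein, was at 422, 419 and 433 CPM in the CD libraries and 112, 112 and 111 CPM in the HFD libraries, and F11r, the junctional adhesion molecule JAM-A, fell from 111 ± 3.93 to 25.9 ± 0.791 CPM. Cgn, cingulin, was at -2.23 log2, the connexin Gja1 at -0.91, and the cadherins Cdh3, Cdh2 and Cdh11 at -1.70, -1.23 and -0.86. Hsd11b1, which activates glucocorticoids, was at 129, 131 and 125 CPM in the CD libraries and 37.2, 34.8 and 37.3 CPM in the HFD libraries, Agt, angiotensinogen, fell from 37.8 ± 2.12 to 10.2 ± 0.434 CPM and Ace, which makes angiotensin II, from 98.5 ± 1.27 to 30.5 ± 1.74 CPM. The natriuretic peptide receptors diverged, Npr1, which signals, falling by 1.37 log2 and Npr3, which clears the peptides, rising from 46.01 ± 2.45 to 85.5 ± 4.08 CPM. Mesothelial markers summed to a 3.16 times lower level in the same libraries, and the part of that list in these values was not tested.

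A few genes of low level were present in 1 diet and nearly missing from the other. Trem1, a receptor that amplifies myeloid inflammation, had 1, 0 and 2 counts in the CD libraries and 50, 44 and 49 in the HFD libraries. Sirpb1b, of the signal-regulatory protein family, had 0, 1 and 0 counts in the CD libraries and 25, 13 and 19 in the HFD libraries, though near copies of that gene make its reads uncertain. Ear2, an eosinophil-type ribonuclease with near copies of its own, had 40, 28 and 33 counts in the CD libraries and 0, 0 and 0 in the HFD libraries. Nts, neurotensin, had 23, 25 and 22 counts in the CD libraries and 0, 1 and 0 in the HFD libraries, and Lgals12, a galectin of fat cells, had 9, 12 and 16 counts in the CD libraries and 0, 0 and 0 in the HFD libraries. No fold is given for these genes because 1 group was at or near 0 counts.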
